A study of Rattus norvegicus with 18 samples.

Results

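The 10 integrin subunit genes of the rat colon are described here, 7 of them grouped as stromal (Itga1, Itga5, Itga6, Itga7, Itga8, Itgav and Itgb1) and 3 as leukocyte (Itgb7, Itgae and Itgal). They were found as the probe sets whose annotation gives exactly 1 gene symbol, one of these 10, which yielded 19 probe sets out of 31042 and 10 genes out of 14217. The stromal genes have 16 of the probe sets and the leukocyte genes 3. The members were chosen with the values of these same arrays in view, so their levels and differences are given as a description with no p, and where calls on them are counted nothing is read from the counts.

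Colitis was induced in rats by 1 enema of 10 mg of trinitrobenzene sulfonic acid (TNBS), a hapten, in 50% ethanol, a solvent that breaks the mucosal barrier. Full-thickness colon was taken from 3 rats each at days 2, 5, 7 and 14 and from 6 healthy rats given saline, and each of the 18 rats had 1 Affymetrix whole-genome rat expression array. The TNBS rats were picked for the arrays by their inflammatory markers, among them myeloperoxidase activity, so they are not a random draw of treated animals. No group received ethanol alone, the labels give no strain, age, sex or sampling day of the controls, and the extraction entry differs between TNBS and control samples, so hapten, solvent and extraction cannot be told apart in any difference from control.

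Integrins are cell surface receptors made of 1 alpha and 1 beta chain that join the extracellular matrix, or a ligand on another cell, to the actin skeleton. Itgb1 encodes the beta chain shared by most receptors for collagen, laminin and fibronectin on smooth muscle, fibroblasts and epithelium. Leukocytes use Itgb1 as well, and also the beta chains Itgb2 and Itgb7. In the gut the receptors containing Itgb7 guide lymphocytes into the mucosa and hold them in the epithelium.

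A pair of partners from each class is shown by its promoter, the collagen receptor chains Itga1 and Itgb1 and the epithelial lymphocyte chains Itgae and Itgb7. The beta chain of each pair has other alpha partners too. The sequences are from RefSeq on build GRCr8, run 5′ to 3′ on the gene's strand and cover 250 bases before to 50 bases after the annotated start. Capitals mark exact matches, on either strand, to a GC box (GGGCGG) or a TATA box (TATAAA). The CCAAT box and an ETS motif with the letters CCGGAAGT were searched too. None of these motifs shares its place with another in the windows shown.
Itga1: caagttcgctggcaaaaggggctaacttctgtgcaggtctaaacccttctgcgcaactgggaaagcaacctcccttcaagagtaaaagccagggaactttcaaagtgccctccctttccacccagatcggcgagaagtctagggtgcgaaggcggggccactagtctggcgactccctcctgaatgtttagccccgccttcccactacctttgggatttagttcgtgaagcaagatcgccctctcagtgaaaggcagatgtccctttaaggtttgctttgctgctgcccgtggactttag
Itgb1: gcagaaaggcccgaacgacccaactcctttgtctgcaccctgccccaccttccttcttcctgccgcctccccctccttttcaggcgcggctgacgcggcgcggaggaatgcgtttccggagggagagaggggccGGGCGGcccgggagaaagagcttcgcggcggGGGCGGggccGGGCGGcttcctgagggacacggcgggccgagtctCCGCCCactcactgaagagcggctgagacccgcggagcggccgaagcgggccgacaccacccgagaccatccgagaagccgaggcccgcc
Itgae: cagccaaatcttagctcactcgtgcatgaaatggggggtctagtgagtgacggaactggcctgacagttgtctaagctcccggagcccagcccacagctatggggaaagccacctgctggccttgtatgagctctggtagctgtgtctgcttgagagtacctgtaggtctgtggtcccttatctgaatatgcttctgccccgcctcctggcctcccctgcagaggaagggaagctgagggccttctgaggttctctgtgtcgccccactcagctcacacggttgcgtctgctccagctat
Itgb7: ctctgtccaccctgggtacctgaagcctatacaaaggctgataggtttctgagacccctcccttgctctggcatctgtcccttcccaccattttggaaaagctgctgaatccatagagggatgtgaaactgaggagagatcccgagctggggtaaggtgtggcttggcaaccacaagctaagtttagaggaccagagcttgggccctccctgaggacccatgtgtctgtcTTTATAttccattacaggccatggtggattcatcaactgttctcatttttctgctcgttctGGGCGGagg
The Itga1 window lies at chr2:48545234-48545533 on the minus strand, the Itgb1 window at chr19:73602027-73602326 on the plus strand, the Itgae window at chr10:58203118-58203417 on the plus strand and the Itgb7 window at chr7:135239022-135239321 on the minus strand. Itgb1 held 4 GC box matches and the highest GC content of the 4 windows, at 71.7%. Itgb7 held 1 GC box and 1 TATA box match at a GC content of 51.7%, while Itga1 (53.7%) and Itgae (57.3%) held no match to any of the 4 motifs. Among all 33469 promoter windows of this length, 33.1% held a GC box, 37.5% a CCAAT box, 14.2% a TATA box and 3.81% the ETS motif. Entries were found for 7 of the 10 members. Of the others, Itga5 and Itgav held 2 GC box matches each and Itga8 none. The 2 partner chains of a pair thus differed in base composition and in motif matches in both classes, which says nothing of which factors bind there.

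Levels below are log2 signals of the probe set with the highest mean of its gene, and a difference of 1 is a doubling. As deposited, the control arrays had medians of 4.27 to 4.30 and the TNBS arrays of 5.03 to 5.08, which put nearly every probe set higher after TNBS, so levels and differences from control are given after quantile normalization across the 18 arrays. Differences between TNBS days use the deposited values. Gapdh and beta-actin probe sets also differed between the groups in their 3′ minus 5′ signal, from -0.19 to 0.19 in controls against 0.27 to 0.76 after TNBS for Gapdh, and from 1.82 to 2.22 against 0.88 to 1.47 for beta-actin. The day 2 array of replicate 1 correlated more with the day 14 arrays (mean r = 0.987) than with its own group (0.970), and that of day 5 replicate 1 did so by less (0.984 against 0.980), so day 2 and day 5 differences are also given without these arrays. Smooth muscle (Myh11, Tagln) and epithelial (Epcam, Krt8) markers were among the brightest genes, as full-thickness colon should show. A level from whole tissue cannot tell fewer cells of a type from less RNA per cell.

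**Figure D1:**
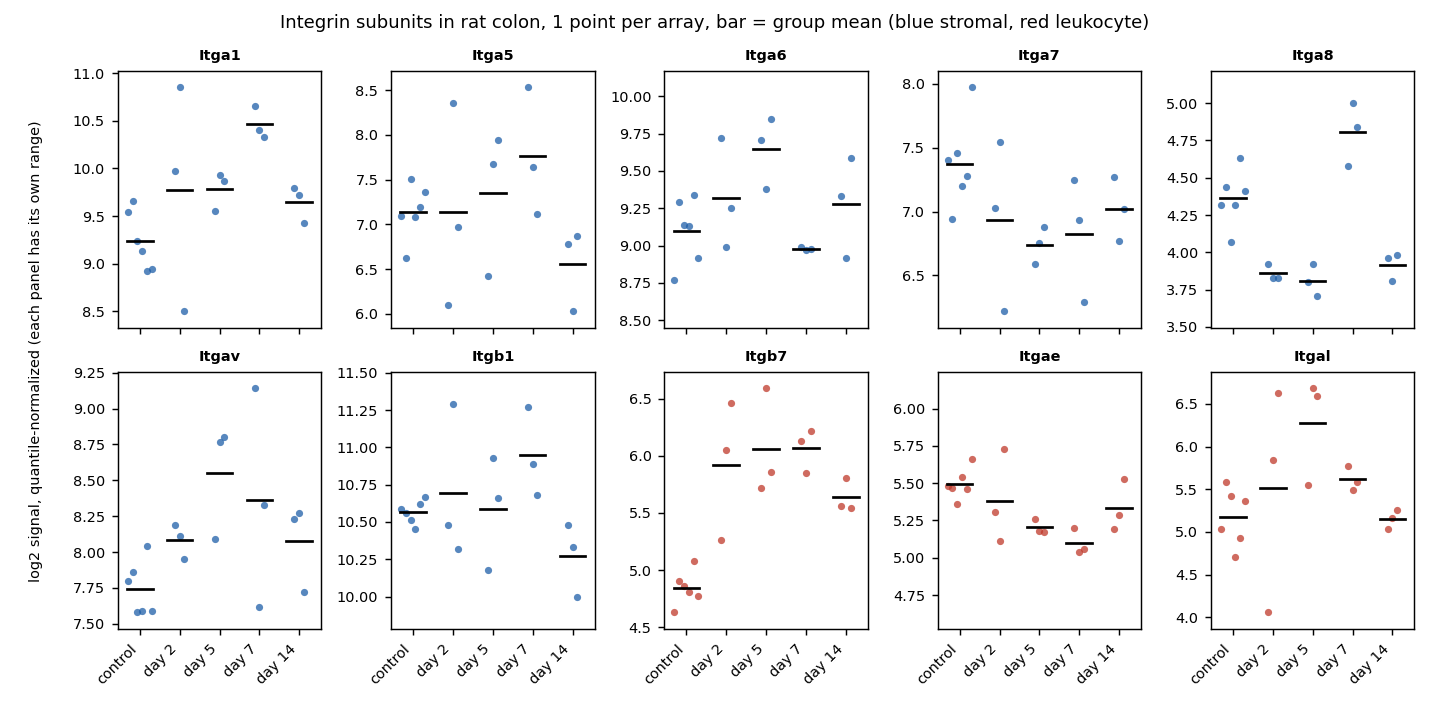
Quantile-normalized log2 level of the leading probe set of each of the 10 members (vertical axis, 1 panel per gene) by group (horizontal axis: control, TNBS days 2, 5, 7 and 14); each point is 1 rat and each bar a group mean. All TNBS points of Itgb7 lie above all 6 controls, and Itga8 is highest at day 7.

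Itgb1, the common beta chain, moved little between groups. In controls its level ran from 10.45 through a median of 10.57 to 10.67. It was 10.48, 11.29 and 10.32 on the day 2 arrays, 10.18, 10.93 and 10.66 at day 5, 11.27, 10.89 and 10.68 at day 7, and 10.48, 10.33 and 10.00 at day 14. The controls were tight (SD 0.08, n = 6) and the TNBS arrays wide (SD 0.24 to 0.52, n = 3 per day), with only the 3 arrays of day 7 all above the highest control. The day 7 difference from control was 0.38 ± 0.20 (SE), and it was -0.06 when arrays were only centred on their medians. The day 2 and day 5 differences of 0.13 and 0.02 were 0.24 and 0.23 without replicate 1 of each day, and -0.16 and -0.15 without replicate 2, so their sign rested on single arrays. At day 14 the level was lower than at day 7 by a difference of -0.62 ± 0.21 on the deposited scale, with no overlap of arrays. A second probe set differed from control by 0.59, 0.16, 0.64 and -0.01 (SE 0.23) on the 4 days.

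Itga1 pairs with Itgb1 in a receptor for collagens, type IV among them, and was highest at day 7. Control levels ran from 8.92 through 9.19 to 9.66. The TNBS arrays read 9.97, 10.85 and 8.50 at day 2, 9.55, 9.93 and 9.87 at day 5, 10.66, 10.40 and 10.33 at day 7, and 9.79, 9.72 and 9.43 at day 14. At day 7 all 3 rats exceeded every control by a mean difference of 1.23 ± 0.34, which is 2.34-fold, while the day 5 and day 14 arrays overlapped the controls (differences of 0.54 and 0.41). Day 2 held both the highest and the lowest of all 18 levels: its difference of 0.54 became -0.00 without replicate 2, 1.17 without replicate 3 and 0.44 without replicate 1. The day 5 difference without replicate 1 was 0.66. On the deposited scale day 7 stood above day 5 by 0.69 ± 0.39, and the change from day 7 to day 14 was -0.76 ± 0.39, both with separate arrays.

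Itga5, the alpha chain of the main fibronectin receptor, varied more between rats than between days. The controls spanned 6.63 to 7.51 with a median of 7.14. Levels were 6.10, 8.36 and 6.97 at day 2, 6.42, 7.68 and 7.94 at day 5, 8.53, 7.64 and 7.12 at day 7, and 6.78, 6.03 and 6.87 at day 14. Every TNBS group overlapped the controls, and differences from control were 0.00, 0.20, 0.62 and -0.58 (SE 0.43). They rested on single arrays: the day 2 value ran from -0.61 (without replicate 2) to 0.52 (without replicate 1), that of day 5 from -0.09 (without replicate 3) to 0.66 (without replicate 1), that of day 7 from 0.24 (without replicate 1) to 0.94 (without replicate 3), and that of day 14 from -0.74 (without replicate 3) to -0.32 (without replicate 2). Among consecutive days, the lone pair with separate arrays was day 14 below day 7, by a deposited difference of -1.09 ± 0.47.

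Itga8 encodes an alpha chain of smooth muscle and other contractile cells that binds fibronectin, tenascin and related ligands with Itgb1, and it had the sharpest day 7 pattern. Its control levels were 4.07 at the lowest, 4.37 at the median and 4.63 at the highest. It read 3.92, 3.83 and 3.83 at day 2, 3.80, 3.92 and 3.71 at day 5, 4.58, 5.00 and 4.84 at day 7, and 3.96, 3.81 and 3.98 at day 14. All arrays of days 2, 5 and 14 lay below all controls, whereas 2 of the 3 day 7 arrays lay above the highest control. Between TNBS days, the deposited value was higher at day 7 than at day 5 by 1.06 ± 0.12 (2.08-fold) and changed from day 7 to day 14 by -0.97 ± 0.12. These 2 differences use no control array, but their SE comes from the fit to all 18 arrays, controls included. Against control the differences were -0.51, -0.55, 0.44 and -0.45 (SE 0.11) after quantile normalization, but 0.17, 0.10, 1.16 and 0.19 as deposited, so the direction on days 2, 5 and 14 depends on the scale. Leaving out replicate 1 gave -0.53 at day 2 and -0.55 at day 5. The probe set was dim, below the median of all probe sets on 16 of 18 arrays. A second, dimmer Itga8 probe set, below that median on 18 of 18, differed by 0.10 from day 5 to day 7 and by -0.23 from day 7 to day 14 (SE 0.15), and did not show the day 7 step at that size.

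Itgav pairs with several beta chains and binds vitronectin, fibronectin and the latent form of transforming growth factor beta. The controls ran from 7.58 through 7.69 to 8.04. Its TNBS levels were 8.19, 8.11 and 7.95 at day 2, 8.09, 8.77 and 8.80 at day 5, 9.14, 7.62 and 8.33 at day 7, and 8.23, 8.27 and 7.72 at day 14. The day 5 arrays all exceeded the controls, by a difference of 0.81 ± 0.25 (1.75-fold), and the other days overlapped them. With replicate 1 of the day left out, the day 5 difference was 1.04 and the day 2 difference, 0.34 in full, was 0.29. Day 7 was uneven: its difference of 0.62 became 0.24 without replicate 1 and 0.99 without replicate 2. A second, dimmer probe set separated more, by 1.20, 1.64, 1.35 and 0.75 (SE 0.28), and its arrays of days 2, 5 and 7 all lay above the controls. The remaining probe set read 0.76, 0.67 and 0.67 (SE 0.18) on those days, again with no overlap.

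The laminin receptor chains Itga6 and Itga7 differed from control in opposite directions at day 5 after quantile normalization, while both means lay above control as deposited. Itga6, which anchors epithelium to the basement membrane with Itgb4 and also pairs with Itgb1, spanned 8.77 to 9.34 in controls with a median of 9.13. It read 9.72, 8.99 and 9.25 at day 2, 9.71, 9.38 and 9.85 at day 5, 8.99, 8.97 and 8.98 at day 7, and 9.33, 8.92 and 9.59 at day 14. The 3 day 5 arrays all lay above the controls (difference 0.55 ± 0.17), which was 0.19 after median centring and 0.96 as deposited, and the day 7 arrays lay within them. At day 2 the difference of 0.22 was 0.02 without replicate 1, and at day 5 it was 0.51 without replicate 1. Day 7 was below day 5 with no overlap, by a deposited difference of -0.63 ± 0.21. The 2 other bright Itga6 probe sets gave larger differences from control: 0.71, 0.62, 0.23 and 0.81 (SE 0.21) for one and 0.81, 0.81, 0.36 and 0.81 (SE 0.20) for the other, each smallest at day 7. The fourth probe set was below the array-wide median on 18 of 18 arrays and differed from control by -0.12, 0.04, -0.08 and -0.08 (SE 0.15). Epithelial markers, with 13 of 13 measured, stood at -0.08 to 0.11 in controls, -0.45 to 0.23 at day 2, -0.55 to 0.24 at day 5, -0.92 to -0.02 at day 7 and 0.25 to 0.42 at day 14, and their part in the Itga6 values was not tested.

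Itga7, the laminin receptor chain of muscle, had a lower mean than control on all 4 days after quantile normalization and a higher one as deposited. Controls ran from 6.94 through 7.34 to 7.97. The levels were 7.03, 7.54 and 6.22 at day 2, 6.59, 6.75 and 6.88 at day 5, 7.25, 6.93 and 6.29 at day 7, and 7.27, 6.77 and 7.02 at day 14. The day 5 arrays all lay below the controls; the other days overlapped them. Differences were -0.45, -0.64, -0.55 and -0.35 (SE 0.26) after quantile normalization and 0.25, 0.09, 0.18 and 0.43 as deposited. A dimmer probe set gave -0.70, -1.08, -0.81 and -0.54 (SE 0.24), and its day 5 difference was negative on the deposited scale too, at -0.25. The third Itga7 probe set, below the array-wide median on 15 of 18 arrays, gave -0.28, -0.16, -0.20 and 0.44 (SE 0.27), and its day 14 arrays lay wholly above those of day 7, by a deposited difference of 0.67 ± 0.29, so it did not follow the others at day 14. For the leading probe set the day 2 difference was -0.49 without replicate 1, -0.75 without replicate 2 and -0.09 without replicate 3, that of day 5 was -0.56 without replicate 1, and that of day 7 ran from -0.77 (without replicate 1) to -0.28 (without replicate 3). Smooth muscle markers, of which 10 of 10 were measured, also lay low: their mean level relative to the control mean was -0.21 to 0.22 in controls, -0.92 to 0.18 at day 2, -1.24 to -0.47 at day 5, -0.58 to -0.11 at day 7 and -0.66 to -0.20 at day 14. Of these 10 genes, 2, 4, 1 and 2 fell on both scales on the 4 days, against 0.522%, 1.09%, 1.07% and 0.135% of all probe sets. The dimmest of the 10, Lmod1, read 7.11 on average in controls, and the part of muscle content in the Itga7 values was not tested.

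Of the leukocyte members, Itgb7 was higher than in every control on all 12 TNBS arrays. It encodes the beta chain that pairs with Itga4 to bind the gut vascular addressin Madcam1 and with Itgae to bind E-cadherin. Controls ran from 4.63 through 4.83 to 5.08. The levels were 5.26, 6.05 and 6.46 at day 2, 5.72, 6.59 and 5.86 at day 5, 6.13, 5.85 and 6.22 at day 7, and 5.56, 5.81 and 5.54 at day 14. In order of group mean, day 7 (6.07), day 5 (6.06), day 2 (5.92) and day 14 (5.63) stood above control (4.84), and TNBS groups next to each other in that order overlapped. Differences from control were 1.08, 1.22, 1.23 and 0.79 (SE 0.22), that is 2.11-fold, 2.32-fold, 2.34-fold and 1.73-fold, and they were positive as deposited and after median centring as well. The day 2 difference was 1.41 without replicate 1 and 0.81 without replicate 3, and that of day 5 was 1.38 without replicate 1.

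Itgae, the CD103 chain that holds lymphocytes to epithelial E-cadherin, did not follow its partner. Its control levels were 5.36 to 5.66 with a median of 5.48. It read 5.31, 5.11 and 5.73 at day 2, 5.26, 5.18 and 5.17 at day 5, 5.20, 5.04 and 5.06 at day 7, and 5.19, 5.29 and 5.53 at day 14. All arrays of days 5 and 7 lay below the controls, and those of days 2 and 14 overlapped them. Differences were -0.11, -0.29, -0.40 and -0.16 (SE 0.11) after quantile normalization, while the day 7 difference as deposited was 0.45, so the direction is not settled. The day 2 difference was -0.08 without replicate 1, 0.03 without replicate 2 and -0.28 without replicate 3, and that of day 5 was -0.32 without replicate 1. From day 7 to day 14 the deposited value was higher by 0.25 ± 0.13, with separate arrays.

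Itgal, whose protein forms LFA-1 with Itgb2 and binds Icam1 on endothelium and antigen-presenting cells, was highest at day 5. Controls ran from 4.71 through 5.19 to 5.58. The TNBS arrays read 4.06, 5.84 and 6.63 at day 2, 5.55, 6.68 and 6.59 at day 5, 5.77, 5.49 and 5.59 at day 7, and 5.03, 5.16 and 5.26 at day 14. Every day overlapped the controls, by 1 array at day 5, where the difference was 1.10 ± 0.39 (2.15-fold). The day 2 group was wide (SD 1.32, n = 3), and its difference of 0.34 was 1.07 without replicate 1 and -0.22 without replicate 3. The day 5 difference was 1.46 without replicate 1. On days 7 and 14 the differences were 0.44 and -0.02.

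At day 2 the lymphocyte markers were high on 1 array of the 3. Of the T cell list, 12 of 13 genes were measured, and their mean relative to control was -0.20 to 0.48 in controls, -0.36, -0.21 and 2.02 on the day 2 arrays, 0.14 to 0.75 at day 5, 0.10 to 0.33 at day 7 and 0.21 to 1.07 at day 14. The B cell list, with 5 of 8 genes, reached 2.94 on day 2 replicate 3, 0.75 to 2.76 at day 14 and 2.24 on 1 control, against -0.75 to 0.81 on the other TNBS arrays. Day 2 replicate 3, the highest array of both lists, was also the highest day 2 array of Itgb7, Itgae and Itgal. Macrophage markers, with 11 of 11 measured, stood at -0.20 to 0.08 in controls, 0.62 to 1.76 at day 2, 1.48 to 2.44 at day 5, 1.82 to 2.28 at day 7 and 0.00 to 0.70 at day 14. Neutrophil markers, with 6 of 7, stood at -0.14 to 0.11, then 1.67 to 3.83, 3.38 to 4.66, 3.92 to 5.25 and 0.80 to 1.57. No marker is at 0 on this log scale, and the part of cell content in the leukocyte subunit values was not tested beyond leaving out arrays.

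**Figure D2:**
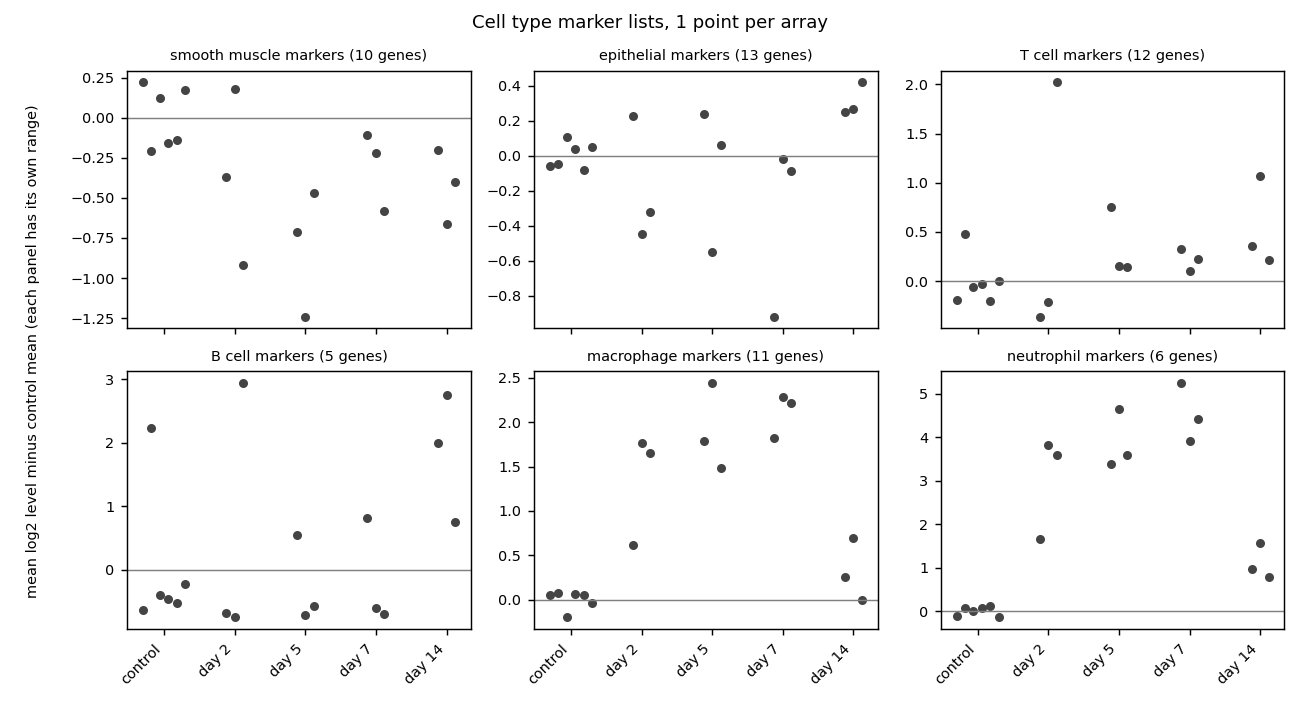
Mean quantile-normalized log2 level of 6 cell marker lists (smooth muscle, epithelial, T cell, B cell, macrophage and neutrophil, 1 panel each), relative to the control mean (vertical axis), by group (horizontal axis). Each point is 1 rat; the T cell and B cell lists peak on 1 day 2 array, at 2.02 and 2.94.

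Averaged within each array, the 3 leukocyte members stood above their control mean by -0.29, 0.50 and 1.10 at day 2, 0.34, 0.98 and 0.70 at day 5, 0.53, 0.29 and 0.45 at day 7, and 0.09, 0.25 and 0.27 at day 14, where controls spanned -0.15 to 0.15. The 7 stromal members read -0.02, 0.49 and -0.35 at day 2, -0.17, 0.26 and 0.31 at day 5, 0.70, 0.27 and 0.15 at day 7, and 0.04, -0.24 and -0.13 at day 14, with controls at -0.09 to 0.07. The leukocyte mean exceeded the stromal mean by 0.51, 0.72 and 0.39 at day 5, above the control span of -0.12 to 0.17 on all 3 arrays. At day 7 the gap was -0.17, 0.02 and 0.30, and at day 14 it was 0.05, 0.49 and 0.40. Day 2 ran from -0.27 through 0.01 to 1.45, the last on the array rich in lymphocyte markers. On this quantile-normalized scale, stromal and leukocyte subunits therefore separated on every array of a day at day 5 alone. The leukocyte mean there was carried by Itgb7 and Itgal, since Itgae lay below control. As deposited, the day 14 gap also lay above the control span on every array, so the limit to day 5 depends on the scale.

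Read across all genes, the members were called at rates given here beside those of all 31042 probe sets, and nothing is read from the counts because the same contrasts chose the members. A call is a limma adjusted p under 0.05, and a rise or fall against control needs the call on both the quantile-normalized and the deposited values. The second scale removed no rise: 2835, 3762, 3849 and 1741 probe sets rose on the 4 days with or without it. Of the falls, which numbered 3065, 4493, 4951 and 1891 after quantile normalization, it left 162, 338, 331 and 42. Few falls on both scales therefore follow from this rule, for members and lists alike. At day 2, 1 of 10 members was called higher (Itgb7) against 9.13% of all probe sets. At day 5 there were 4 (Itga6, Itgav, Itgb7 and Itgal) against 12.1%, at day 7 there were 3 (Itga1, Itga8 and Itgb7) against 12.4%, and at day 14 there was 1 (Itgb7) against 5.61%. No member was called lower on both scales, where the shares of all probe sets were 0.522%, 1.09%, 1.07% and 0.135%. On the quantile-normalized values alone 1 member was called lower on each day, Itga8 on days 2, 5 and 14 and Itgae on day 7, against 9.87%, 14.5%, 15.9% and 6.09%. Leaving out 1 array at a time moved the counts called higher to 1 to 2 at day 2, 1 to 4 at day 5 (the lowest without day 5 replicate 3), 2 to 3 at day 7 and 0 to 1 at day 14 (the lowest without day 14 replicate 1). The 4 comparisons share the same 6 controls, so they are not independent of each other.

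**Figure D3:**
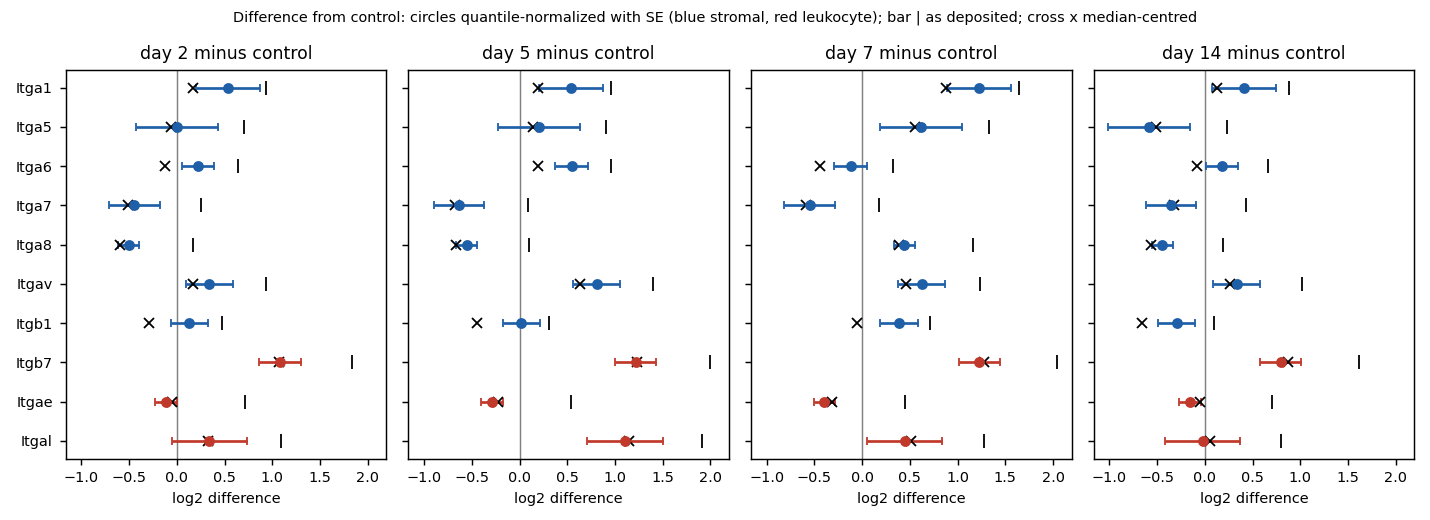
Log2 difference from control (horizontal axis, quantile-normalized, with standard error bars) of each member's leading probe set (vertical axis) on TNBS days 2, 5, 7 and 14, as circles; the upright mark is the same difference as deposited and the cross that after median centring. Itgb7 lies between 0.79 and 1.23 on all 4 days, and Itga8 is positive at day 7 only on this scale, though positive on every day as deposited.

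Arrays lay wholly above the controls for 1, 3, 3 and 1 members on the 4 days, where 9.0%, 11.7%, 11.8% and 8.49% of all probe sets did so. They lay wholly below for 1, 3, 1 and 1 members, where 9.61%, 14.4%, 15.7% and 9.61% did. Of the 40 differences from control, 25 were positive and 15 negative after quantile normalization. The sign was the same on all 3 scales for 19 of the positive differences and for 0 of the negative ones. All of these differences were positive as deposited, where the TNBS arrays had the higher medians. No negative difference could thus keep its sign, and nothing is read from this split. Between days, no member was called from day 2 to day 5 (0.00966% of all probe sets), 1 was higher at day 7 than at day 5 (Itga8, 0.0161%) and 1 was lower at day 14 than at day 7 (Itga8), where 3.08% of all probe sets were lower. Itga8 was also the 1 of 10 members called by an F test among the 4 TNBS days, against 2.34% of all probe sets. Day 7 arrays lay wholly above those of day 5 for 2 members (3.78% of all probe sets) and wholly below for 1 (5.41%). From day 7 to day 14 the arrays of 5 members dropped without overlap, against 9.31% of all probe sets, and those of 1 rose, against 15.2%.

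Chains that form 1 receptor were followed together over the 12 TNBS arrays, as a description, since these arrays share days, normalization and tissue makeup. Itga1 and Itga5 tracked Itgb1 (Pearson r = 0.77 and 0.82, Spearman rho = 0.81 and 0.87), and without the 2 arrays farthest from the median the r values were 0.91 and 0.59. Itga6 ran against Itgb1 (r = -0.53) and with its epithelial partner Itgb4 (r = 0.76). Itgav tracked Itgb3 (r = 0.81) and less so Itgb5 (r = 0.61), with no such relation to Itgb6 (rho = -0.01). In the leukocyte class Itgal and Itgb2 gave r = 0.65, whereas Itgae and Itgb7, the pair shown by their promoters above, gave r = -0.07 and rho = -0.31, and r = -0.53 without the 2 arrays farthest from the median. Itgb7 and Itgal, which form no receptor with each other, gave r = 0.82.

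The genes most alike to each member over the same 12 arrays, out of 13983 compared, were ranked by Pearson's r. They were Acvr1 (0.946), Nrp2 and Baz2b for Itga1, Angptl2 (0.928), Fstl3 and Clic4 for Itga5, and Map1b (0.934), Aldoc and Cald1 for Itgb1. For Itga8 they were Ifngr1 (0.931), Fbn2 and Slc47a1, for Itgav Bin3, Atp6ap1 and Zc3h13, for Itga6 Kctd5, Chmp4b and Slc25a42, and for Itga7 Tmem185a, Mbnl2 and Fzd6. Itgb7 was nearest to Fxyd5 (0.934), Gng2 and Rrp1, Itgae to Tra2b, Fubp1 and Hnrnpa3, and Itgal to Sec13, Hbe2 and Arid3b. Spearman's rho of these pairs ran from 0.606 (Itga8 with Ifngr1) to 0.972 (Itga5 with Clic4). Without the 2 arrays farthest from the member's median, r ran from 0.67 (Itga1 with Baz2b) to 0.946 (Itga6 with Slc25a42), and was 0.742 for Itga8 with Ifngr1. The marker list with the highest r was smooth muscle for Itga7 (0.78) and Itga1 (0.61), and fibroblasts for Itga5 (0.78), Itgb1 (0.74) and Itga8 (0.65). It was endothelium for Itgav (0.77), epithelium for Itga6 (0.51), neutrophils for Itgb7 (0.76) and Itgal (0.64), and B cells for Itgae (0.68, T cells 0.67). Itgb7 gave 0.72 with macrophages, but 0.39 with T cells and 0.02 with B cells. The lowest values were those of Itgb1 (-0.82), Itga5 (-0.76) and Itgb7 (-0.75) with epithelium and of Itga1 with T cells (-0.75). These values do not assign a member to a cell type.

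Integrin subunits outside the 10 members were measured for 12 of 16 listed genes and were tested. These genes and the ligand and adaptor lists below were also chosen with earlier results of these data known, so their p-values are not independent evidence. The largest rises were those of Itgax, Itgam and Itgb2. Itgax, the CD11c chain of dendritic cells and macrophages, rose by 1.97 ± 0.31 at day 5 (limma adjusted p = 0.000333) and by 2.83 ± 0.31 at day 7 (adjusted p = 1.48e-05). Itgam, the CD11b chain of neutrophils and macrophages, rose by 1.59 ± 0.38 and 2.08 ± 0.38 on those days (limma adjusted p = 0.00653 and 0.000903). Itgb2, the beta chain of Itgal, Itgam and Itgax, rose by 2.08 at day 2, 2.01 at day 5 and 2.85 at day 7 (SE 0.56, limma adjusted p = 0.0171, 0.0146 and 0.00144). The day 2 rise of Itgb2 was lost without day 2 replicate 2 or 3 (adjusted p up to 0.127) and the day 5 rise without day 5 replicate 2 (adjusted p = 0.115). All 3 chains ran beside the macrophage and neutrophil markers given above, whose part in these rises was not tested.

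Itgb4, the hemidesmosome partner of Itga6, rose at day 2 (0.77 ± 0.19, limma adjusted p = 0.00938), day 5 (0.86, adjusted p = 0.00324) and day 14 (0.90, adjusted p = 0.00528), and its day 7 difference of 0.48 was not called (adjusted p = 0.0666). Itgb5, a partner of Itgav, rose by 0.54 ± 0.13 at day 5 and 0.67 at day 7 (limma adjusted p = 0.00667 and 0.00137). Itga9, an alpha chain for tenascin and Vcam1, was called lower on all 4 days after quantile normalization (-0.75, -0.66, -0.54 and -0.70, SE 0.17) but had differences of 0.00 to 0.21 as deposited, so it is counted as neither. Itga3, a laminin receptor chain, was likewise called lower at day 7 on that scale alone (-0.64 ± 0.12), and Itgb3 and Itgb6 were called on no day, with differences between -0.58 and 0.65. Itgad, another partner of Itgb2 on macrophages, differed by -0.12, -0.03, -0.26 and -0.05 (SE 0.17) and was not called. The platelet chain Itga2b rose by 0.55 to 0.64 on days 2, 5 and 7. The collagen receptor chain Itga11 rose by 0.63 ± 0.20 at day 7 (limma adjusted p = 0.0241), a call lost without any 1 of the day 7 arrays (adjusted p up to 0.0970). Both probe sets were dim. Itga11 lay between 3.25 and 4.31 on all arrays, below the median of all probe sets (4.79), and Itga2b at 4.00 to 4.47 in controls. Counted together, 3, 6, 6 and 1 of the 12 rose on the 4 days, against 9.13%, 12.1%, 12.4% and 5.61% of all probe sets. On both scales 0 of the 12 fell, where 0.522%, 1.09%, 1.07% and 0.135% of all probe sets did. Their median difference was 0.06, 0.59, 0.58 and 0.25, where the median of all probe sets was -0.04 to -0.01. From day 7 to day 14 Itgax fell by 2.12 ± 0.35 (limma adjusted p = 0.00315) and Itgam fell by 1.86 ± 0.42 (adjusted p = 0.0197), the latter lost without day 7 replicate 1, day 14 replicate 1 or day 14 replicate 3 (adjusted p up to 0.0987).

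**Figure D4:**
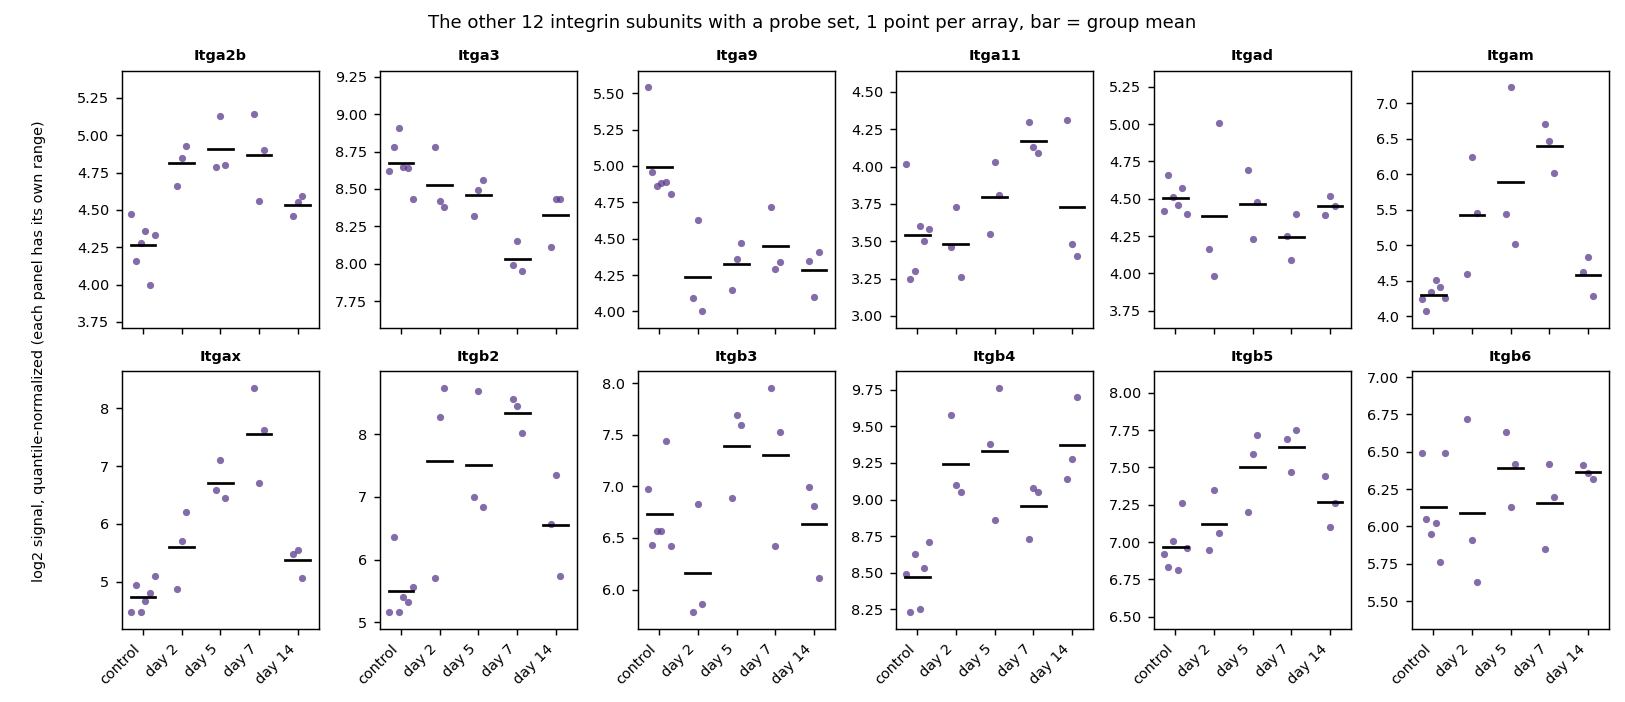
Quantile-normalized log2 level of the 12 other integrin subunits with a single-symbol probe set (vertical axis, 1 panel per gene) by group (horizontal axis); each point is 1 rat and each bar a group mean. Itgax, Itgam and Itgb2 are highest at day 7.

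Matrix ligands of the stromal receptors, such as collagens, fibronectin and tenascin, were measured for 27 genes, of which 16 rose at day 5 and 19 at day 7. Over the 4 days 5, 16, 19 and 1 rose, against 9.13%, 12.1%, 12.4% and 5.61% of all probe sets, with median differences of 0.29, 0.61, 1.01 and 0.04. On both scales 1, 0, 0 and 0 fell, against 0.522%, 1.09%, 1.07% and 0.135% of all probe sets. On the quantile-normalized values 2, 0, 2 and 2 were called lower, against 9.87%, 14.5%, 15.9% and 6.09%. The laminin chains Lama3 (-0.48) and Lamb3 (-0.64) were called lower at day 7 after quantile normalization alone. The day 2 rises were Spp1, Tgfb1, Fn1, Vtn and Lamc1. Postn, the periostin gene, fell at day 2 by 0.86 ± 0.20, a call lost without day 2 replicate 1 or 3, and Vtn, the vitronectin gene, was the single rise of day 14 (0.60 ± 0.16), lost without day 14 replicate 1 or 2. At day 7 the secreted ligand Spp1 (osteopontin) rose by 3.45 ± 0.70, the collagen chain Col1a1 by 2.29 ± 0.39 and Tnc, a tenascin, by 2.16 ± 0.49 (limma adjusted p = 0.00185, 0.00047 and 0.00404). From day 7 to day 14, 12 of the 27 fell, against 3.08% of all probe sets, among them Col1a1 by 2.12 ± 0.42 and the fibronectin gene Fn1 by 1.88 ± 0.35 (limma adjusted p = 0.00997 and 0.00745). The Col1a1 drop missed the threshold without day 14 replicate 2 (adjusted p = 0.0502). Leaving out single arrays moved the day 2 count of rises to between 1 (without day 2 replicate 2) and 10 (without day 2 replicate 1), the day 5 count to as few as 7 (without day 5 replicate 2) and the count of day 14 falls to between 5 (without day 7 replicate 1) and 16 (without day 14 replicate 1). The fibroblast markers, 8 of 8 measured, stood at 1.30 to 1.63 above the control mean at day 7, 0.52 to 1.35 at day 5 and -0.09 to 0.59 at day 14.

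The cell surface ligands of the leukocyte receptors were all measured, with median differences between 0.70 and 1.83. Of these 9 genes 3, 5, 5 and 1 rose on the 4 days, against 9.13%, 12.1%, 12.4% and 5.61% of all probe sets. On both scales 0 fell, where 0.522%, 1.09%, 1.07% and 0.135% of all probe sets did. On the quantile-normalized values 1, 0, 1 and 0 were called lower, against 9.87%, 14.5%, 15.9% and 6.09%. The rises of day 2 were Madcam1, Vcam1 and Icam1, a count that dropped to 1 without control replicate 1. The rises of both days 5 and 7 were Madcam1, Vcam1, Icam1, Icam2 and Thy1. Endothelial markers, with 8 of 9 measured, stood at -0.27 to 0.16 in controls, 0.07 to 0.47 at day 2, 0.62 to 1.96 at day 5, 0.75 to 1.88 at day 7 and -0.01 to 0.28 at day 14, and their part was not tested. Madcam1, the vascular addressin bound through Itgb7, rose on every day, by 1.56, 1.98, 1.83 and 1.60 (SE 0.32). Its limma adjusted p was 0.00323 at day 2 and 0.00387 at day 14, and no single array left out ended either call. Icam1, the ligand of the receptors with Itgb2, rose by 1.10, 1.81 and 2.58 (SE 0.36) on days 2, 5 and 7 and fell from day 7 to day 14 by 1.74 ± 0.40 (limma adjusted p = 0.0217). The Icam1 call at day 2 (adjusted p = 0.0445) was lost without any of 7 single arrays, up to an adjusted p of 0.306, and its fall was lost without 4 of them, up to 0.127.

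Adaptors that couple integrins to actin, such as talin, kindlin and vinculin, were measured for 33 genes. On the 4 days 7, 10, 7 and 1 rose, against 9.13%, 12.1%, 12.4% and 5.61% of all probe sets, and the median difference was 0.02 to 0.23. On both scales 1 fell, at day 5, against 1.09% of all probe sets. On the quantile-normalized values 1, 5, 4 and 1 were called lower, against 9.87%, 14.5%, 15.9% and 6.09% of all probe sets. The largest rises at day 7 were Apbb1ip (RIAM) by 2.13 ± 0.33 and Fyb1 (ADAP) by 1.77 ± 0.36, both adaptors of hematopoietic cells (limma adjusted p = 0.000224 and 0.00192), followed by Parvb by 1.14 ± 0.22 (adjusted p = 0.00121). Tln1, the talin that activates integrins, rose by 0.70 ± 0.15 at day 2 (limma adjusted p = 0.00436). Lims2, a partner of integrin-linked kinase, fell by 1.49 ± 0.27 at day 5 (limma adjusted p = 0.000883 after quantile normalization), and lost its fall on both scales without day 5 replicate 2. The single rise of day 14 was Actn4, an alpha-actinin (0.71 ± 0.18), lost without day 14 replicate 3. Single arrays moved the day 2 count of rises between 3 (without day 2 replicate 3) and 11 (without day 2 replicate 1). None of the ligand, adaptor or other integrin genes was called from day 2 to day 5 or from day 5 to day 7.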

How the data were processed

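The data were the log2 signals deposited by the authors for 31099 probe sets, with 1 array for each of 18 rats and 0 columns from other samples. Normalization was done with the affyPLM package, per the labels. No source used here states the log base, the background method or whether control and TNBS arrays went through it as 1 set, and the range of the values fits a log2 scale. The 57 array controls were dropped, which left 31042 probe sets: 20826 with 1 gene symbol, 436 with several and 9780 with none listed. Where a gene had several single-symbol probe sets, the one with the highest mean over all arrays leads and the rest are described beside it.

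Comparisons with control used values quantile normalized across the 18 arrays, and those between days the deposited values. limma 3.58.1 in R 4.3.3 fitted 5 group means to all 18 arrays, with Benjamini-Hochberg adjustment over all probe sets and two-sided tests at 0.05; it was tested on simulated data. The number of arrays limits the precision. The members and lists were chosen with earlier results of these data known. The genes named are all members, the other integrins measured and, from each ligand or adaptor list and comparison, those printed of the up to 3 with the largest rise or fall, and the 3 genes most correlated with each member; others in counts of 5 or fewer were named after their values were seen. Alternatives were the deposited and median-centred scales, both scales together, a fit of only the groups compared, a filter on the lowest 25% of probe sets, the replicate number as a block, and leaving out each array.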

Additional observations from a re-analysis of the deposited data

Results flagged for a closer look

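In 3 control groups of the 31 probe sets examined, 1 array stood apart from the other 5 by Dixon's test, whose threshold chance alone passes in about 5% of groups. They were the dim Itga7 probe set on control replicate 6 (level 5.59), Itga9 on control replicate 1 (5.54) and Itgb2 on control replicate 2 (6.36), which is also the control with the high B cell markers.

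Among the TNBS days, Itgax differed by the F test (limma adjusted p = 0.00867). Itga8, Itga6 and Itgb1 had all arrays of 1 day above the control mean and all arrays of another below it. In the fit of the deposited values the difference between those days was called for Itga8 and not for Itga6 or Itgb1. The Itga8 difference was called on the quantile-normalized values too. After quantile normalization Itga8 was higher at day 7 than at day 5 by 0.99, Itga6 was higher at day 5 than at day 7 by 0.67, and Itgb1 was higher at day 7 than at day 14 by 0.68.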

How the results depend on the processing

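The scale decided most counts against control. Over all probe sets the calls on days 2, 5, 7 and 14 numbered 5900, 8255, 8800 and 3632 after quantile normalization. They were 25866, 25444, 25203 and 26951 as deposited (98.7% to 99.8% of them higher), 12289, 14415, 15861 and 11044 after median centring (20.6% to 22.7% higher), and 2997, 4100, 4180 and 1783 on both scales together. The other integrins called were 4, 7 and 2 at days 2, 5 and 14, against 10, 11 and 9 as deposited and 1 at day 14 on both scales. Itga8 turned to 0.17, 0.10 and 0.19 at days 2, 5 and 14 as deposited, and Itgae to 0.45 at day 7. A fit of only the 2 groups compared called 0, 0 and 832 between consecutive days, against 3, 6 and 1397, and the F test on the 12 TNBS arrays alone called 39, and 0 other integrins, against 727 and 1.

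Whether the replicate numbers pair the rats was not settled. Of 30 pairs of the same number 13 correlated above 0.1, from -0.329 to 0.469, and pairs of different numbers were not compared. With the replicate block the calls were 3643 at day 2, 2137 at day 14, 1, 2 and 888 between consecutive days and 111 by the F test, with 2 other integrins at day 2 and 0 by the F test.

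Leaving out each array in turn gave 3057 to 6814, 5121 to 7921, 6080 to 8655 and 1772 to 3466 calls against control, 0 to 48, 5 to 80 and 438 to 1557 between consecutive days, and 292 to 1042 by the F test. Other integrins numbered 3 to 6, 6 to 7, 6 to 8 and 1 to 3 against control, 1 to 3 from day 7 to day 14 and 1 to 2 by the F test. Each member difference from control was refitted without each array in turn, and 351 of these refitted values moved by less than the replicate spread and 9 by more. Leaving out 1 array moves a group mean by only part of the spread of that group, so few values could pass this mark. It does not show that signs were stable, and those of Itgb1 and Itga5 at days 2 and 5 turned on single arrays. On the 2 other scales, 4 differences that had been called turned sign, and of the other values 35 moved by less and 41 by more. Of all 40 differences, called or not, 19 kept their sign on all 3 scales. The negative ones could not, since every member difference from control was positive as deposited. The cause of these shifts was not tested. With 3 rats a day and dim probe sets for some genes, such as Itga8, Itga11 and Itga2b, small differences were not resolved.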
